A study of Mus musculus with 10 samples.

Results

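The effect of the Tdg genotype on 5-carboxylcytosine (5caC) was set against the culture medium in mouse embryonic stem cells, as 1 difference of ratios over 4 groups. The groups were Tdg cells in serum-2i, wt cells in serum-2i, Tdg cells in serum and wt cells in serum, with 2 technical replicates each, so 8 of the 10 samples of the series were used. The quantity is the ratio of Tdg over wt in serum-2i divided by the ratio of Tdg over wt in serum, on the log2 scale. It was computed for all autosomes, for 1 Mb windows, for gene spans and for classes of sites. All groups shared a serum medium with LIF on gelatin without feeder cells. Serum-2i added CHIR99021 at 3 µM, which blocks the kinase GSK3, and PD0325901 at 1 µM, which blocks the kinase MEK. The labels give the gene name Tdg without the kind of alteration and name neither the strain nor the number of clones. DNA of Tet triple knockout cells in serum, the negative control of the series with 2 samples, was not analysed here.

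5caC arises when Tet enzymes oxidise 5-methylcytosine step by step. Thymine DNA glycosylase, encoded by Tdg, cuts 5caC out of DNA, and base excision repair puts an unmodified cytosine back. In cells without this activity 5caC can remain where the Tet enzymes made it. Embryonic stem cells in 2i medium are known for a lower level of DNA methylation and a more uniform naive state than cells in serum. A difference of ratios between media asks whether the genotype changes 5caC by the same factor in both.

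The authors' table listed CG positions by group with a coverage value, and 1174238 of its 1183229 entries lay on the 19 autosomes. Tdg cells in serum-2i had 683575 autosomal sites with a median coverage of 13.5, and wt cells in serum-2i had 110315 with a median of 7.5. Tdg cells in serum had 371703 sites with a median of 14.5, and wt cells in serum had 8645 with a median of 4.5. The lowest listed coverage was 6 for both Tdg groups, 4 for serum-2i wt cells and 3 for serum wt cells, so a minimum of 6 was the first that all groups shared. Each group had 1 value per site, taken here as the mean of its technical replicates, and the depth of each library is unknown. No p-value was therefore computed. The 95% intervals below are exact conditional intervals for 4 counts and cover counting error only, since PCR reads are not independent molecules. A difference between cultures or libraries that changed all sites of 1 group cannot be told apart from the difference of ratios over the whole genome. A factor that multiplied the site counts of a group alike everywhere drops out where a region is set against the autosomal value. A difference in depth acts on counts through the coverage minimum, which differed between groups, and need not drop out. The table holds no expression, so the labelled cell type was not checked against markers.

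Promoters show at single CGs what the 4 numbers of a difference of ratios are made of, and 4 are printed here for that reason. Each is the 300 bases around the start of a protein-coding gene, 5′ to 3′ on the gene's strand, from RefSeq on GRCm38.p6. Capitals mark the CGs that at least 1 group listed. The genes are Syce3, for a protein of the synaptonemal complex (chr15:89410214-89410513, minus strand), Fam110a (chr2:151973345-151973644, minus strand), Prkar1b, for a regulatory subunit of protein kinase A (chr5:139129703-139130002, minus strand), and Hoxa3, for a homeobox transcription factor (chr6:52213018-52213317, minus strand).
Syce3: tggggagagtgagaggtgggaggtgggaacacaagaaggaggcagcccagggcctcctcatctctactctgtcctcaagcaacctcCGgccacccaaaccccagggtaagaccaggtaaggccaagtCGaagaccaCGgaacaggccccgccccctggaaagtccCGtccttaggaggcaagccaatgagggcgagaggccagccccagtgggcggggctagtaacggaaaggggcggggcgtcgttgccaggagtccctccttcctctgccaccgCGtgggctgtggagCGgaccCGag
Fam110a: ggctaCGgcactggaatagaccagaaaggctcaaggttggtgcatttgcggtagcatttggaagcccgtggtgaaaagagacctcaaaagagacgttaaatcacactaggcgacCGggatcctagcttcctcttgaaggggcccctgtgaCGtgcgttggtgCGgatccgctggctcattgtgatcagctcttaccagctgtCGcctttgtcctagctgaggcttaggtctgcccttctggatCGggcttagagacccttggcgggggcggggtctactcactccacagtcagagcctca
Prkar1b: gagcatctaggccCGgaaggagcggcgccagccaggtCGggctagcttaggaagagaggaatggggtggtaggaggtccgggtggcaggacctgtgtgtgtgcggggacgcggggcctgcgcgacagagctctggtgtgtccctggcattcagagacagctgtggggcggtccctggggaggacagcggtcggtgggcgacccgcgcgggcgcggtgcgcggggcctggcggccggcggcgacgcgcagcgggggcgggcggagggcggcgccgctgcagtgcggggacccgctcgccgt
Hoxa3: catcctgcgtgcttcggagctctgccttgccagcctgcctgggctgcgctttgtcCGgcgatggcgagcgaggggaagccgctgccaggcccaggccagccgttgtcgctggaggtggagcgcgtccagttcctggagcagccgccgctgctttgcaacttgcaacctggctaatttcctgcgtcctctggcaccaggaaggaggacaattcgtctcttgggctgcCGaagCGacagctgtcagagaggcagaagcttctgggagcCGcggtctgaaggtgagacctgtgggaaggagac

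Syce3 and Fam110a each held a CG that all 4 groups listed, and 17 promoters outside chromosome 18 held sites of all 4 groups. At base 297 of the Syce3 sequence the coverage was 35.5 in serum-2i Tdg, 5 in serum-2i wt, 28 in serum Tdg and 4.5 in serum wt. Tdg exceeded wt by a similar factor in both media there, and the log2 difference of ratios was 0.19. At base 244 of Fam110a the coverage was 44.5 in serum-2i Tdg, 10 in serum-2i wt, 84 in serum Tdg and 10 in serum wt. The wt values were equal there and the Tdg value was lower in serum-2i, which gave a log2 difference of -0.92. Prkar1b and Hoxa3 are among 67 promoters outside chromosome 18 with sites in both serum groups and none in serum-2i wt. Prkar1b came first by serum wt sites and then CG number, and Hoxa3 was the first Hox gene in that order. They were thus not chosen as typical. Promoters with serum-2i sites and none in serum wt were not counted. At base 227 of Hoxa3 the coverage was 13.5 in serum-2i Tdg, 40.5 in serum Tdg and 5 in serum wt, with no listed value in serum-2i wt. The Prkar1b promoter, with 37 CGs, had sites at bases 14 and 38 in serum only, with coverages of 13.5 and 27 in Tdg cells and 4 and 4.5 in wt cells. A position that is not listed may have lain under the minimum, so its value is unknown and not 0.

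Over the autosomes the factor by which Tdg cells exceeded wt cells in listed 5caC sites was far smaller in serum-2i than in serum. Counted at coverages of 6 and above, the 683575 sites of Tdg cells in serum-2i stood against 81909 of wt cells in serum-2i, a ratio of 8.35. The 371703 sites of Tdg cells in serum stood against 1994 of wt cells in serum, a ratio of 186. The Tdg over wt ratio was thus 22.3 times smaller in serum-2i, a log2 difference of ratios of -4.48 (95% interval -4.55 to -4.42). With every listed site counted, the ratios were 6.20 in serum-2i and 43.0 in serum, 6.94 times apart, and the log2 difference was -2.79 (-2.83 to -2.76). The direction holds for ratios and turns on the additive scale. Tdg cells had 601666 more sites than wt cells in serum-2i and 369709 more in serum from a coverage of 6, and 573260 and 363058 more over all listed sites.

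The size of the difference followed the coverage minimum. At minima of 8, 10, 12 and 15 the log2 difference of ratios was -5.48, -5.87, -5.97 and -6.48. The serum wt group kept 593, 237, 115 and 33 sites at those minima. At a minimum of 20 it kept 9, and the value was -6.46 with an interval of -7.59 to -5.53. All 11 minima tried from 3 to 20 gave a smaller Tdg over wt ratio in serum-2i, with an interval below 0. Summed coverage gave -4.89 from a coverage of 6 and -3.65 over all listed sites. With 1 site counted per 1 kb bin and group, the values were -4.20 and -2.51. The mean coverage of a listed site alone gave a log2 difference of -0.85 over all listed sites and -0.41 from a coverage of 6. The means over all listed sites were 17.9 in serum-2i Tdg, 8.04 in serum-2i wt, 20.02 in serum Tdg and 4.97 in serum wt. From a coverage of 6 the wt means were 9.13 in serum-2i and 7.68 in serum.

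**Figure D1:**
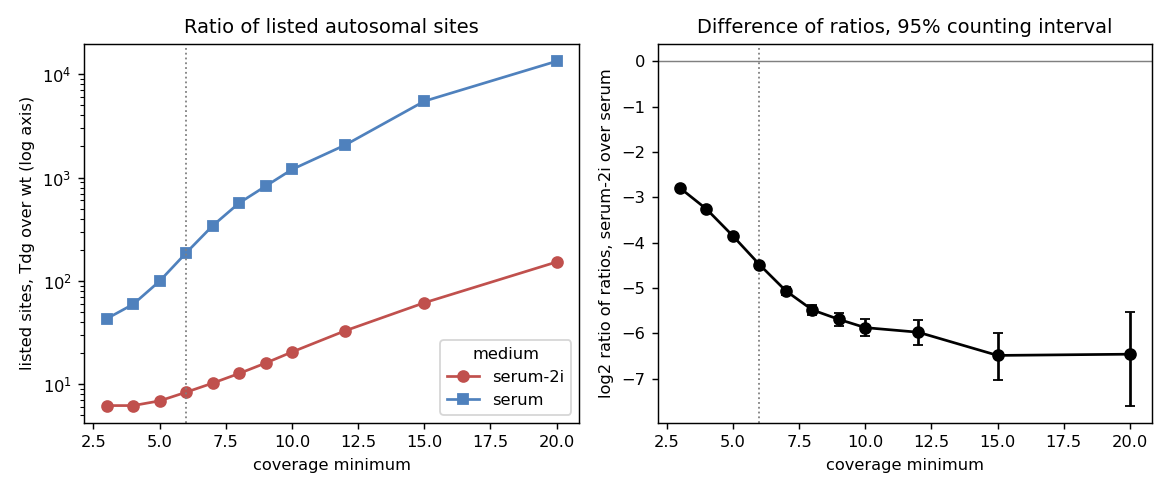
Left, Tdg over wt ratio of listed autosomal sites (log axis) against the coverage minimum, for serum-2i and serum; right, the log2 difference of ratios with its 95% counting interval. The dotted line marks the minimum of 6, where the ratios were 8.35 in serum-2i and 186 in serum, and the difference runs between -2.79 at 3 and -6.48 at 15.

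Counts of sites depend on which positions passed the listing, so the positions that all 4 groups listed were examined by their coverage. There were 610 of them on the autosomes. Their median coverage was 29.5 in serum-2i Tdg, 9 in serum-2i wt, 27.25 in serum Tdg and 4.5 in serum wt. The 2 Tdg groups were close at these positions, while the serum-2i wt median was above the serum wt median. The log2 difference of coverage ratios had a median of -0.86 with quartiles of -1.60 and -0.14, and it was below 0 at 481 positions and above 0 at 128. Of these positions, 156 had a coverage of 6 or more in every group, with a median of -0.63, 116 below 0 and 39 above. The median was below 0 on each of the 19 autosomes, between -1.24 and -0.13. These positions were listed in serum wt, the group with fewest sites, and so do not stand for the rest.

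**Figure D2:**
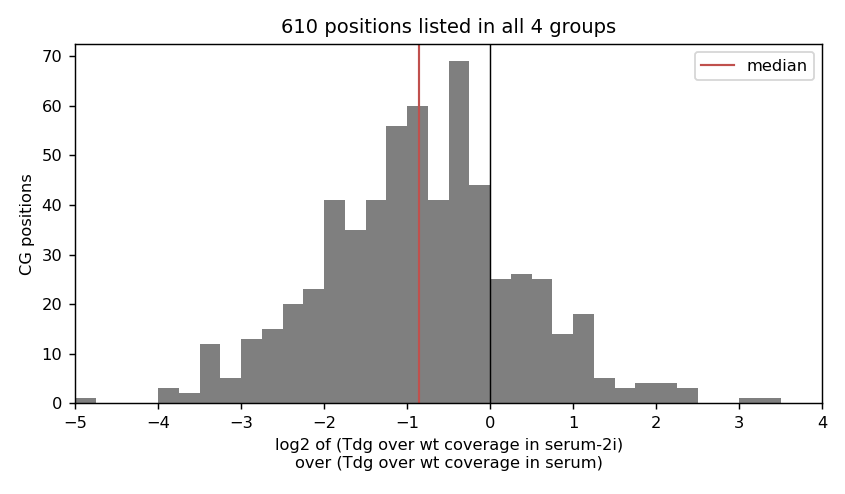
Number of CG positions by the log2 difference of coverage ratios (Tdg over wt in serum-2i, over Tdg over wt in serum), for the 610 autosomal positions listed in all 4 groups. Most positions lie left of 0, the red line marks the median of -0.86, and values run between -4.88 and 3.40.

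Positions listed in both genotypes of a medium gave the same order with more sites, but on different positions in each medium. Only the 610 positions above belong to both sets. In serum-2i, 54242 positions were listed in Tdg and wt cells, and their median coverage ratio was 2.31-fold. In serum, 4719 positions were listed in both genotypes, with a median ratio of 4.63-fold. Both sets passed a lower minimum in wt than in Tdg cells. With a coverage of 6 or more in both genotypes, the median ratio was 2.06-fold over 42520 positions in serum-2i and 3.23-fold over 1159 positions in serum.

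The direction was the same on every autosome. Over all listed sites the log2 difference of ratios lay between -3.06 on chromosome 9 and -2.64 on chromosome 11, and leaving out any 1 autosome moved the autosomal value to between -2.82 and -2.78. With the minimum of 6 it lay between -4.71 on chromosome 4 and -4.12 on chromosome 11, and leaving out 1 autosome gave -4.54 to -4.46. Set against the autosomal value, 7 of 19 autosomes had an interval that left out 0 over all listed sites and 1 did from a coverage of 6. That one was chromosome 11, 0.36 above the autosomal value (0.18 to 0.53), with 51193, 7240, 34095 and 277 sites in serum-2i Tdg, serum-2i wt, serum Tdg and serum wt. Over all listed sites it was 0.15 above. The sign was the same in both counts for 13 of 19 autosomes. The X chromosome had 5728, 438, 2785 and 40 sites in the same order and lay 0.38 above the autosomal value (-0.13 to 0.86), and 0.96 above it from a coverage of 6 (-0.02 to 1.79).

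**Figure D3:**
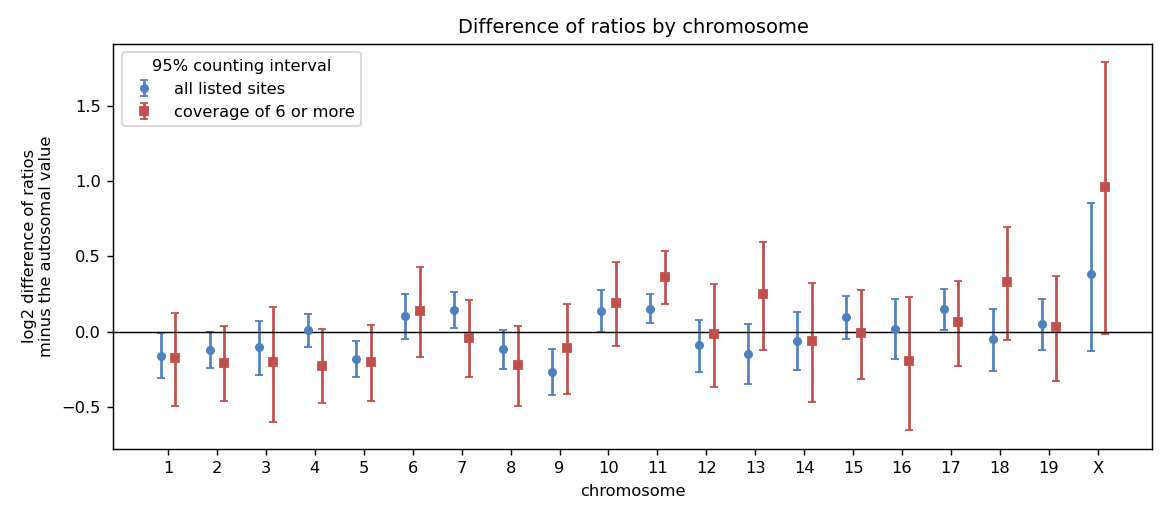
The log2 difference of ratios minus the autosomal value, by chromosome, over all listed sites and from a coverage of 6, with 95% counting intervals. From a coverage of 6, chromosome 11 is the 1 autosome whose interval stays clear of 0.

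Windows of 1 Mb showed how evenly the difference was spread. Of 2409 autosomal windows with any site, 1524 had sites in all 4 groups. A filter on the mean share over the 4 groups, worth at least 3 serum wt sites, kept 937, of which 907 had a serum wt site and gave a ratio. All 907 windows had a log2 difference of ratios below 0, between -6.10 and -0.52. Against the autosomal value the median window was at -0.23, with quartiles of -0.82 and 0.24. The interval of 64 windows, 7.06%, left out the autosomal value. No share expected from counting error can be set against this. The filter takes in the serum wt count, windows without a serum wt site gave no ratio, and several sites can share a 1 kb bin.

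A window was called higher or lower where it lay at least 2-fold from the autosomal value and its interval left that value out. Higher means that the Tdg over wt ratio in serum-2i was less reduced relative to serum than on the autosomes. There were 11 windows called higher (1.21%) and 39 called lower (4.3%). By 2-fold distance alone the counts were 29 (3.2%) and 178 (19.6%). The count from a coverage of 6 kept 119 windows, and called 9 higher (7.56%) and 0 lower (0.0%). By 2-fold distance alone, 14 (11.8%) of those windows were higher and 9 (7.56%) lower. Only 3 windows were called in both counts, all of them higher. At coverages of 6 or more the lowest window, chr4:136000001-137000000, had 1 serum wt site, where the other groups would give 4.89. Its interval still held the autosomal value (-7.61 to 0.22 relative to it). Such low serum wt counts left little room for a lower call.

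The filter takes in the serum wt share, so a window could pass it through a high serum wt count, which also makes it higher. On the mean share of the other 3 groups alone, 7 of the 11 windows called higher passed and 4 did not, while all 39 called lower passed. Few serum wt sites had pulled the mean share of the windows called lower down. They could hardly fail without that group, so their passing is no check on their calls. That filter kept 1001 windows, 74 of them without a serum wt site, and the median of the 927 with a ratio was -0.26. At coverages of 6 or more, 4 of the 9 windows called higher passed it and 5 did not. The 9 against 0 there was thus in part set by the filter, and low serum wt counts left little room for a lower call. Of the 3 windows called in both counts, all passed it over all listed sites and 1, at chr10:81000001-82000000, passed it in both.

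Of the windows called in both counts, the window at chr11:3000001-4000000 lay farthest from the autosomal value. It had 603 sites in serum-2i Tdg, 174 in serum-2i wt, 426 in serum Tdg and 66 in serum wt. The autosomal value and the other 3 groups would give 17.7 serum wt sites. The log2 difference of ratios was 1.90 above the autosomal value (1.43 to 2.36), and 3.19 above it from a coverage of 6 (2.63 to 3.72). The window holds 20 protein-coding genes, among them Sfi1, for a centrin-binding protein of the centrosome, Patz1, for a zinc-finger transcription factor, and Limk2, for a kinase that acts on cofilin.

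Sfi1 held most of that window's distance. Its span (chr11:3131850-3203347) had 131 sites in serum-2i Tdg, 89 in serum-2i wt, 92 in serum Tdg and 51 in serum wt. The 4 counts lie close to each other: the Tdg over wt ratio was 1.47 in serum-2i and 1.80 in serum, the smallest ratio in both media among the genes named here. The log2 difference of ratios was 2.50 above the autosomal value (1.84 to 3.16), and 3.95 above it from a coverage of 6 (3.23 to 4.67). Without Sfi1 the window had 472, 85, 334 and 15 sites in the same order and lay 0.79 above the autosomal value, with an interval that held 0 (-0.13 to 1.63). The autosomal value without Sfi1 was -4.51 from a coverage of 6 and -2.80 over all listed sites.

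The highest single coverage in Sfi1 was 452 in serum-2i Tdg, 100.5 in serum-2i wt, 233.5 in serum Tdg and 70.5 in serum wt. Copies of parts of Sfi1 are known elsewhere in the mouse genome, and the sources used here do not say how reads with several matches were counted, so these counts are uncertain. Whether such reads had a part in the Sfi1 values was not tested. At the 11 positions inside Sfi1 that all 4 groups listed, the median log2 difference of coverage ratios was -0.85, against -0.86 at the 599 positions elsewhere. The site counts of Sfi1 thus lay above the autosomal value while its coverage ratios at these few positions did not stand apart.

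The other 2 windows called in both counts lie near each other on chromosome 10. The window at chr10:81000001-82000000 had 711, 136, 1072 and 64 sites in serum-2i Tdg, serum-2i wt, serum Tdg and serum wt, and lay 1.11 above the autosomal value (0.64 to 1.58). It holds 51 genes, among them Nfic, for a nuclear factor I transcription factor, Eef2, for translation elongation factor 2, and Gna11, for a G protein alpha subunit. Nfic alone had 79, 8, 162 and 13 of the window's sites in the same order. The window was not computed without Nfic. The window at chr10:79000001-80000000 had 455, 87, 528 and 30 sites and lay 1.04 above (0.37 to 1.69). Its 40 genes include Ptbp1, for a splicing regulator, Arid3a, for a transcription factor, and Bsg, for basigin. Both windows had more serum wt sites than the 29.6 and 14.6 that the other groups would give.

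The other windows called higher rested on fewer serum wt sites, and 4 of them (chr1:73000001-74000000, chr6:47000001-48000000, chr1:85000001-86000000 and chr16:16000001-17000000) passed the filter only through those sites, so their calls support nothing. The highest value, at chr1:73000001-74000000 with the genes Tnp1 (a spermatid nuclear protein) and Tns1 (tensin, of focal adhesions), had 258, 41, 45 and 5 sites and lay 2.28 above (0.51 to 3.73). Its serum wt sites all lay under a coverage of 6. The window at chr6:47000001-48000000, which holds Ezh2 (the Polycomb methyltransferase), Cul1 (a cullin) and part of Cntnap2 (a neuronal adhesion protein), had 206, 35, 100 and 10 sites and lay 2.03 above (0.79 to 3.15). The windows at chr1:85000001-86000000, with Sp100, Sp110 and Sp140 of the speckled protein family, and at chr16:8000001-9000000, with Abat (GABA transaminase) and Usp7 (a deubiquitinase), lay 1.81 and 1.61 above. Their serum wt counts were 6 and 13, and those of all 11 windows ran between 5 and 66. At the minimum of 6, 9 of the 11 lay above the autosomal value, 1 lay below and 1 gave no ratio. That count is a part of the same sites and no separate check on the calls.

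Windows called lower were marked by few serum wt sites. They lay on 15 autosomes, between 1.17 and 3.30 under the autosomal value on the log2 scale, and had 1 to 9 serum wt sites with a median of 2. The other 3 groups would have given 5.97 to 20.7. The lowest, chr1:182000001-183000000, had 703 sites in serum-2i Tdg, 109 in serum-2i wt, 441 in serum Tdg and 1 in serum wt, with a relative value of -3.30 (-8.62 to -0.78). Its genes include Enah, for an actin regulator, Trp53bp2, for a partner of p53, and Tlr5, the flagellin receptor.

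The next lowest windows each had 1 serum wt site too. They were chr5:92000001-93000000 at -3.14 (with the chemokines Cxcl9 and Cxcl10, and Shroom3), chr2:73000001-74000000 at -2.99 (with the transcription factors Sp9 and Atf2), chr8:110000001-111000000 at -2.94 (with Sf3b3, a splicing factor subunit, and Hydin, a ciliary protein) and chr1:120000001-121000000 at -2.80 (with the homeobox gene En1). The intervals of such values reach down several log2 units and end near 0. With a minimum of 6, 17 of the 39 windows lay below the autosomal value, 0 above it and 22 had no serum wt site. That count is a part of the same sites. Windows called for few serum wt sites could hardly lie above in it, so it is no check on the calls. A further 30 kept windows had no serum wt site at all and gave no ratio. The other groups would have given them 1.12 to 5.16 sites. At a floor of 3 serum wt sites, their bounds ran between -0.78 and 1.42 relative to the autosomal value.

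**Figure D4:**
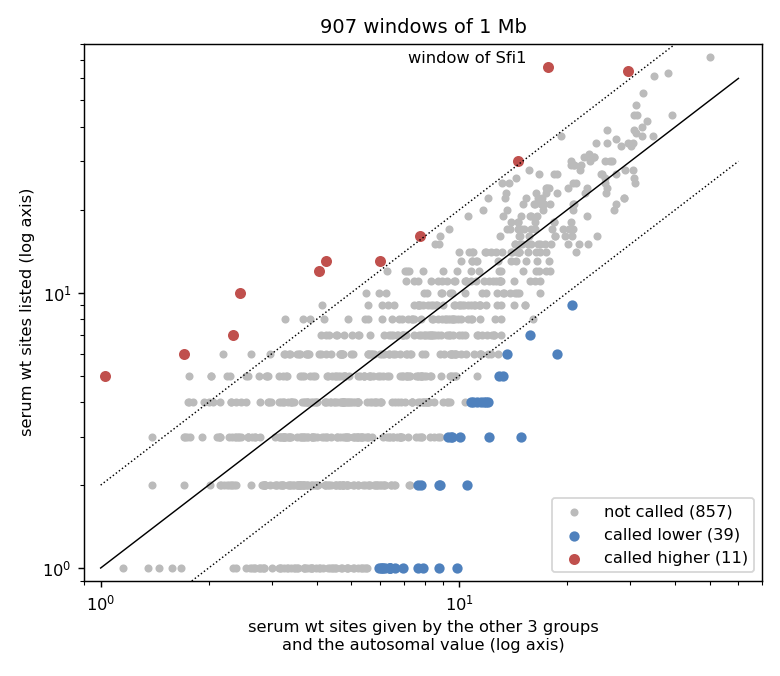
Serum wt sites listed in each of 907 windows against the number that the other 3 groups and the autosomal value would give, both on log axes. The solid line is equality and the dotted lines are 2-fold; 11 windows called higher lie above, with the Sfi1 window at 66 sites against 17.7, and 39 called lower lie below.

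Few genes could be read one by one. Of 20665 autosomal protein-coding genes, 3336 had a serum wt site, 2908 had sites in all 4 groups, and 99 passed the filter. Of these, 94 gave a ratio, with a median 0.20 above the autosomal value and quartiles of -0.44 and 0.77. All 94 had a log2 difference of ratios below 0. There were 4 genes called higher (4.26%), Sfi1, Nfic, Dlgap4 and Macrod1, and 0 lower (0.0%). The lowest gene, Cux2, had 1 serum wt site where the other groups would give 4.20, and its interval held 0. With such counts a lower call was hard to reach, so the 4 against 0 says little on direction. The other 3 groups alone would have kept Sfi1, Dlgap4 and Macrod1 but not Nfic. That filter kept 101 genes, and the 82 with a ratio had a median of -0.20, so the sign of the gene median was set by the filter. It called the same 3 genes higher and 1 lower, Cuedc1, with 154, 37, 187 and 1 sites in serum-2i Tdg, serum-2i wt, serum Tdg and serum wt and a relative value of -2.69 (-8.04 to -0.08). By 2-fold distance alone there were 14 higher (14.9%) and 11 lower (11.7%). With a coverage minimum of 6 only Sfi1 and Gse1 passed the filter, and Sfi1 was called, which is 50.0% of so few genes. Neither passed on the other 3 groups, so that call followed from the filter and supports nothing.

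Nfic (chr10:81396191-81431919) had 79 sites in serum-2i Tdg, 8 in serum-2i wt, 162 in serum Tdg and 13 in serum wt. It was a gene with more wt sites in serum than in serum-2i, against the direction of the autosomal totals. Its Tdg over wt ratio was 9.88 in serum-2i and 12.5 in serum, which put the log2 difference 2.46 above the autosomal value (1.01 to 4.0), and 3.67 above it from a coverage of 6 (1.82 to 5.57). Of its 13 serum wt sites, 12 were also listed in serum Tdg, and its 8 serum-2i wt sites included 5 listed in serum-2i Tdg. The mean share of its other 3 groups was worth 1.80 serum wt sites, under the filter's 3, so Nfic was kept through the serum wt count that makes it higher and its call supports nothing.

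Macrod1 (chr19:7056728-7198062), for an ADP-ribosyl hydrolase of mitochondria, had 236, 40, 283 and 15 sites in serum-2i Tdg, serum-2i wt, serum Tdg and serum wt. Its relative value was 1.12 (0.12 to 2.05), and Flrt1, for an adhesion protein, lies in the same span. Dlgap4 (chr2:156613633-156764363), for a postsynaptic scaffold protein, had 220, 37, 199 and 11 sites and a relative value of 1.19 (0.03 to 2.24). At coverages of 6 or more these genes kept 3 and 1 serum wt sites, and their values were 0.80 and -0.13 with intervals that held 0.

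Gse1 (chr8:120228501-120581383), for a chromatin-associated protein, was among the 3 genes with most serum wt sites from a coverage of 6, with Sfi1 and Nfic, a choice that itself favours a high serum wt count. It had 653, 146, 655 and 36 sites in serum-2i Tdg, serum-2i wt, serum Tdg and serum wt over all coverages. Its Tdg over wt ratio was 4.47 in serum-2i and 18.2 in serum, and its relative value was 0.77 (0.18 to 1.33), under 2-fold and therefore not called. The lowest gene, Cux2, for a homeobox factor, had 278, 45, 180 and 1 sites and a relative value of -2.07 with an interval that held 0 (-7.41 to 0.51).

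Over all listed sites, sites far from genes departed more from the autosomal value than the other site classes did. Outside protein-coding spans and over 300 kb from any span end there were 13159 sites in serum-2i Tdg, 1410 in serum-2i wt, 1680 in serum Tdg and 106 in serum wt. The Tdg over wt ratio was 9.33 in serum-2i and 15.8 in serum, and the difference of ratios lay 2.03 above the autosomal value (1.72 to 2.33). With a minimum of 6 it lay 1.92 above (1.22 to 2.55), with 21 serum wt sites. These sites made up 1.93% of the autosomal sites in serum-2i Tdg, 1.28% in serum-2i wt, 0.452% in serum Tdg and 1.23% in serum wt. The serum Tdg group thus had the lowest share, and the wt groups had nearly the same one.

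The far sites were scattered. The 106 serum wt sites lay in 95 windows with at most 3 in one, and leaving out that window gave 1.99 (1.68 to 2.29). Leaving out any 1 autosome gave 1.98 to 2.12. Their median coverage was 12.5 in serum-2i Tdg, 7 in serum-2i wt, 11.5 in serum Tdg and 4.5 in serum wt, and the serum wt median was that of the autosomes. Of the 106 serum wt sites, 19 were also listed in serum Tdg, which is 17.9% (exact binomial 95% interval 11.2% to 26.6%). Over the autosomes 4719 of 8645 were, which is 54.6% (53.5% to 55.6%). In serum-2i the shares hardly differed, with 46.2% of 1410 far wt sites and 49.2% of 110315 autosomal wt sites also listed in Tdg cells. Sites at 100 to 300 kb lay between, with 29.8% of 245 serum wt sites listed in serum Tdg (24.1% to 35.9%). Such an overlap depends on how many serum Tdg sites a class holds, and serum Tdg had the lowest share of far sites. The overlap is therefore not separate from the difference of ratios. With technical replicates averaged and the control not analysed here, the share of listed wt sites that is background is unknown, and its part in this result was not tested.

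Nearer to genes the departures were smaller. Sites at 100 to 300 kb from a span end lay 0.52 above the autosomal value (0.33 to 0.71) and 0.71 above it from a coverage of 6. Sites at 10 to 30 kb and 30 to 100 kb outside genes lay at 0.06 and -0.13. Sites inside a gene and over 10 kb from any end had 233395, 39453, 93897 and 1931 sites in serum-2i Tdg, serum-2i wt, serum Tdg and serum wt, and lay at -0.24 (-0.31 to -0.18), or -0.32 from a coverage of 6. Sites within 1 kb of a span end, with 36954, 5753, 46107 and 1185, lay at 0.20 (0.10 to 0.29), or 0.29. Distance to genes was thus not ordered in 1 direction, since both the nearest and the farthest sites lay above the autosomal value and the gene bodies below it.

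Gene length and gene density were read in the same way. Spans of 30 to 100 kb and of 100 to 300 kb lay at -0.22 and -0.34, and spans under 10 kb at 0.02. Spans over 300 kb lay at -0.11 with an interval that held 0 (-0.28 to 0.06), so no length class lay clearly above the autosomal value. Windows with 0 to 2 genes lay at 0.50 and windows with 25 or more genes at 0.21, while those with 3 to 9 and 10 to 24 genes lay at -0.34 and -0.10. At the minimum of 6 the gene-dense windows lay at 0.12 with an interval that held 0.

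Promoters rich in CG differed from promoters poor in CG. In promoters with over 20 CGs there were 208 sites in serum-2i Tdg, 7 in serum-2i wt, 1922 in serum Tdg and 34 in serum wt, over 7969 promoter sequences with 215461 CGs. Over all listed sites, both serum groups exceeded the serum-2i group of their genotype there, against the direction of the autosomal totals. The Tdg over wt ratio was 29.7 in serum-2i and 56.5 in serum, 1.87 above the autosomal value on the log2 scale (0.65 to 3.30), and 2.60 above it from a coverage of 6. Promoters with over 30 CGs had 19 sites in serum-2i Tdg, 0 in serum-2i wt, 383 in serum Tdg and 14 in serum wt, so no ratio was formed. Prkar1b, printed above with 37 CGs, is one of them.

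Promoters with 11 to 20 CGs had 1458, 100, 3895 and 62 sites in the same order and lay at 0.69 (0.20 to 1.17). Those with 6 to 10 CGs had 2922, 311, 3116 and 46 and lay at -0.06, and those with 0 to 5 had 2113, 258, 1448 and 31 and lay at 0.28. The intervals of these last 2 classes held 0. The value over all promoters was 0.20 (-0.06 to 0.44).

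**Figure D5:**
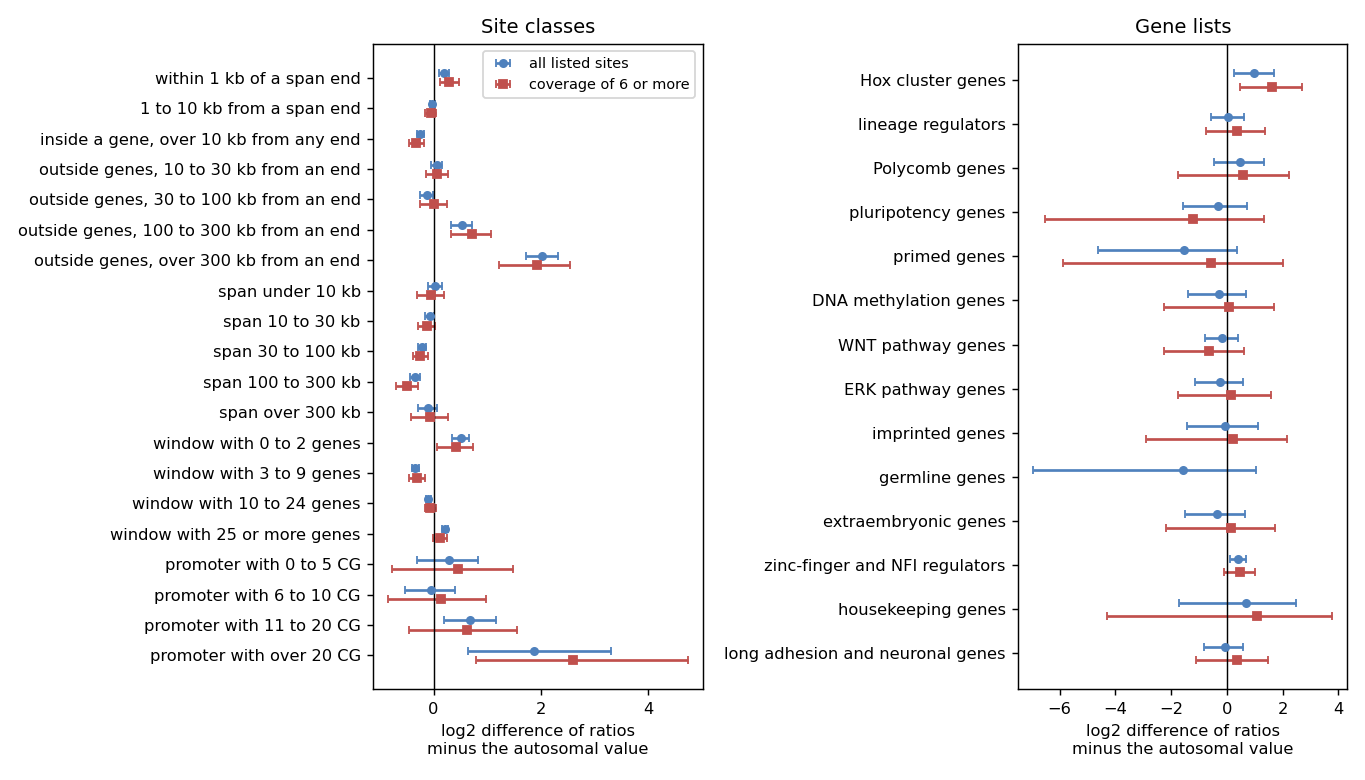
The log2 difference of ratios minus the autosomal value for classes of sites (left) and for summed sites of gene lists (right), over all listed sites and from a coverage of 6, with 95% counting intervals. Sites over 300 kb from a gene at 2.03, promoters with over 20 CGs at 1.87 and Hox genes at 0.97 stand to the right of 0; germline genes had no serum wt site from a coverage of 6.

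Among 14 gene lists, the Hox cluster genes, which encode homeobox factors of axial patterning, lay farthest above the autosomal value with an interval clear of 0. Their 39 spans had 436 sites in serum-2i Tdg, 37 in serum-2i wt, 1669 in serum Tdg and 40 in serum wt. The Tdg over wt ratio was 11.8 in serum-2i and 41.7 in serum, and the list lay at 0.97 (0.27 to 1.68), or at 1.61 from a coverage of 6 (0.45 to 2.69). Over all listed sites, as in the CG-rich promoters, the wt count was no lower in serum than in serum-2i. With the minimum of 6 this order turned, since serum kept 12 wt sites of the list while serum-2i kept 23. Of the 39 genes, 3 passed the filter (Hoxa3, Hoxb3 and Hoxd3) and 0 were called, against 4.26% higher and 0.0% lower over all genes. All 3 passed only through their serum wt sites, so no median over them is given.

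The 4 Hox clusters did not contribute alike. The Hoxd cluster had 82, 6, 403 and 16 sites in serum-2i Tdg, serum-2i wt, serum Tdg and serum wt, and lay at 1.91 (0.43 to 3.60). Hoxb lay at 1.02, Hoxa at 0.60 and Hoxc at -0.82, each with an interval that held 0. Hoxc had 2 serum wt sites. Without Hoxd the list lay at 0.59 with an interval that held 0 (-0.26 to 1.43), and without any 1 of the other clusters it lay between 0.95 and 1.17. Hoxa3 had 71, 8, 233 and 8 sites, Hoxb3 had 78, 7, 284 and 5, and Hoxd3 had 54, 5, 229 and 8. Their relative values were 1.08, 0.44 and 1.39, with intervals that held 0. The Hoxa3 span (chr6:52169059-52213067) held 8 of the 10 serum wt sites of the Hoxa cluster. A site was counted in every span that held it, so the sites of these spans may also belong to neighbouring Hox genes.

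Zinc-finger and nuclear factor I regulators, a list that holds Nfic and Gse1, had 4952, 809, 3997 and 123 sites in serum-2i Tdg, serum-2i wt, serum Tdg and serum wt. They lay at 0.39 (0.09 to 0.67), and at 0.47 from a coverage of 6 with an interval that held 0. Of the 123 serum wt sites, Nfic held 13 and Gse1 held 36, and both genes lay above the list value. The list was not computed without them, so its value may rest on these members. Of 28 members, 8 passed the filter, 1 was called higher (Nfic, kept through its serum wt sites) and 0 lower, against 4.26% higher and 0.0% lower over all genes. Their median was 0.23, against 0.20 over all 94 genes. The other members that passed were Zfhx3 at -0.74, Casz1 at 0.27, Nfix at 0.18, Msi1 at 0.78, Msi2 at -0.18 and Prdm16 at -1.40 beside Gse1, and these 6 had intervals that held 0. From a coverage of 6, Msi1 lay at 2.31 with an interval clear of 0 (0.48 to 3.86), on 173, 16, 244 and 5 sites in serum-2i Tdg, serum-2i wt, serum Tdg and serum wt. Msi1 and Msi2, which bind RNA, were in this list by its making and not as zinc-finger genes.

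The lists closest to the culture conditions did not stand apart. The WNT pathway genes, downstream of the kinase that CHIR99021 inhibits, had 1524, 267, 1287 and 29 sites in serum-2i Tdg, serum-2i wt, serum Tdg and serum wt and lay at -0.16 (-0.78 to 0.40). Tcf7l1, the transcriptional repressor of that pathway, had 276, 38, 143 and 5 sites and lay at 0.82 with an interval that held 0. The ERK pathway genes, in which MEK acts, had 1104, 171, 740 and 14 sites and lay at -0.24 (-1.15 to 0.56). The pluripotency genes had 836, 133, 431 and 8 sites and lay at -0.30 (-1.56 to 0.74), and the primed genes, markers of the later pluripotent state, had 505, 79, 259 and 2 and lay at -1.55 (-4.63 to 0.38). With 2 to 29 serum wt sites, differences within these intervals were not detectable at this depth.

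The intervals of all remaining lists held 0. Lineage regulators had 891, 92, 2562 and 39 sites in serum-2i Tdg, serum-2i wt, serum Tdg and serum wt and lay at 0.03. Polycomb genes lay at 0.47, DNA methylation genes at -0.27, imprinted genes at -0.05, extraembryonic genes at -0.34, housekeeping genes at 0.69 and germline genes, with 1 serum wt site, at -1.59. Long adhesion and neuronal genes, such as Tenm3, Tenm4, Auts2 and Wwox, had 4715, 641, 1023 and 19 sites and lay at -0.08. Foxp1 of the primed list and Cdh13 of the adhesion list passed the filter without a serum wt site.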

How the data were processed

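5caC was read at CG sites of mouse embryonic stem cells after blocking of 5-hydroxymethylcytosine and unmodified CGs, enzymatic decarboxylation and tagging, biotin enrichment and Ion Proton sequencing, per the labels' protocols. The authors deposited 1 coverage (signal) value per listed position and group without values per replicate; mm10 is the build named by the submitters' processing notes. The sources used here give no aligner, caller or listing rule. Positions were read as counted from 0, since 19232 of 19232 entries inside RefSeq promoters (GRCm38.p6, the same assembly) then fell on a CG.

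Listed sites were counted per autosome, 1 Mb window, protein-coding span (without flanks), promoter and class with Python 3.11.15, numpy 2.4.6, pandas 2.3.3 and scipy 1.17.1. The value is log2 of (serum-2i Tdg × serum wt) / (serum-2i wt × serum Tdg), with an exact conditional 95% interval, minus the autosomal value of the same table where called relative. Windows and genes were kept where the mean share over the 4 groups was worth at least 3 serum wt sites; which of them the other 3 groups alone would keep is stated. Calls needed a 2-fold distance and an interval that left out 0. The window calls were tried on simulated data with independent counts and without the filter. The filter, the gene calls and sites that lie close together were not tested there. The named genes are the called ones (the 10 highest and lowest at most), genes of the 5 highest and 5 lowest called windows, kept list members and the 3 genes with most serum wt sites from a coverage of 6; Cux2, Cuedc1 and the genes of the other 2 windows called in both counts were named after their values were seen. The 14 lists, with 387 of 400 symbols matched to autosomal protein-coding genes, and the members were chosen with earlier results of these data known. The alternatives tried are in the closing section.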

Additional observations from a re-analysis of the deposited data

How the results depend on the processing

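No paired analysis was possible because the table gives 1 value per group and none per replicate, so neither a replicate block nor leaving out a replicate could be run. The autosomal difference of ratios, -4.48 from a coverage of 6, was -2.79 with all listed sites, -5.48 and -5.87 at minima of 8 and 10, -4.89 with summed coverage and -4.20 with 1 site per 1 kb bin; every one had the same direction. Against 11 windows called higher, there were 22 with summed coverage, 17 with 1 site per 1 kb bin, 17 with at least 5 sites in each group, 7 at a filter minimum of 6, 7 with the filter on the 3 groups other than serum wt (added after seeing the data) and 29 by 2-fold distance alone. Against 39 called lower, there were 0 from a coverage of 6, 6 with at least 5 sites in each group and 178 by 2-fold distance alone. From a coverage of 6, low serum wt counts left little room for a lower call. Requiring sites in each group drops windows with few serum wt sites by its own construction. Against 4 genes called higher, there was 1 from a coverage of 6 (of 2 kept), 15 with at least 5 sites in each group, 2 at a filter minimum of 6 and 14 by 2-fold distance alone, and against 0 lower there were 1 with the filter on the other 3 groups and 11 by 2-fold distance alone. Windows shifted by 500 kb or 2 Mb wide, and spans with 1 kb flanks, kept the counts within 1.5 times.

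Relative values moved out of their intervals as follows; the cause was not tested. Chromosome 11, at 0.36 from a coverage of 6, was at 0.15 with all listed sites, and chromosome 13, at 0.25, was at -0.15. From a coverage of 6, sites within 1 kb of a span end were at 0.29, gene bodies over 10 kb from an end at -0.32, spans of 100 to 300 kb at -0.49 and windows with 25 or more genes at 0.12. Sites at 30 to 100 kb outside genes changed sign, to 0.0024, as did Dlgap4, to -0.13. Among named genes at that minimum, Sfi1 was at 3.95, Msi1 at 2.31 and Casz1 at -0.98, and Nfix was at 1.46 with 1 site per 1 kb bin. With 1 site per 1 kb bin, the Hox genes were at 2.04 and the lineage regulators at 0.93. Under the same thinning, which was chosen for site classes after seeing the data, sites within 1 kb of a span end were at 0.37, at 1 to 10 kb at 0.090 and inside genes at -0.37. Sites outside genes were at -0.061 (10 to 30 kb), -0.31 (30 to 100 kb), 0.19 (100 to 300 kb), 1.66 (over 300 kb) and 0.54 (over 100 kb). Spans under 10 kb were at 0.42, of 10 to 30 kb at 0.10 and of 100 to 300 kb at -0.49, and windows with 3 to 9 and with 25 or more genes at -0.45 and 0.39. Leaving out Sfi1, each Hox cluster or each autosome, all but chromosome 11 for the autosomal value chosen after seeing the data, left the autosomal, list and class values within their intervals, while the window of Sfi1 moved to 0.79 without that gene. Of 56 alternative values of the 19 named genes with a ratio, 51 stayed within the gene's interval. The serum wt count limits the precision of every value given here.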
